A study of Homo sapiens with 3 samples.

Results

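Replication-dependent and linker histone genes were followed in human pluripotent stem cell (PSC)-derived induced melanocytes. All rows of the deposited gene list whose symbol begins with HIST1H, HIST2H, HIST3H or HIST4H were taken, which gave 71 rows among 36601, and 66 of them had at least 1 unique molecular identifier (UMI, a tag that marks a single captured RNA molecule) in the kept cells. The 5 rows with no UMI were HIST1H2BA, HIST1H2BB, HIST1H3C, HIST3H3 and HIST1H4G. The samples were 3 droplet single-cell RNA libraries, with 1 library per day, taken at day 23 (D23), day 32 (D32) and day 44 (D44) of melanocyte induction through embryoid bodies in medium containing Wnt3a-conditioned medium, SCF, endothelin-3 and bFGF. The medium also held dexamethasone, cholera toxin and the phorbol ester TPA. In the paper's protocol, TPA was left out and fetal bovine serum added once the plated cells were passaged. The medium of each library at harvest is not stated, so the groups shared the protocol but not necessarily the same medium. None of the 3 groups was an untreated control, and the labels carry no genetic change. The sample titles name induced pluripotent stem cells as the starting cells, whereas the source field names H9, an embryonic stem cell line, so the starting cell is not settled by the labels. The later libraries shared an induction experiment and a sequencing batch, which the D23 library did not, so in any comparison of D23 with D32 or D44 the day, the induction and the batch cannot be told apart.

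Histones package DNA into nucleosomes, in which H2A, H2B, H3 and H4 form the core and linker histones of the H1 family bind the DNA that enters and leaves it. Most replication-dependent histone genes lie in clusters, have no introns and are transcribed at high rate while DNA is copied, under the coactivator NPAT. Their mRNAs end in a stem-loop bound by SLBP instead of a poly(A) tail and are degraded when replication stops, although some of these genes also give polyadenylated transcripts outside S phase. The labels give polyadenylated RNA as the molecule that was sequenced, so the UMIs reported here count captured transcripts, and the order of genes by UMIs need not be their order by molecules per cell.

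The stem-loop at the mRNA end is shown first for genes whose levels behaved differently below. Positions were read from the hg38 genome with the GENCODE 44 annotation, which held 64 of the 66 genes (HIST2H2AA3 and HIST2H2AA4 were not matched). A 16-base stem-loop was found in all 64, starting 22 to 62 bases after the stop codon, within the 3′ untranslated region. Each site below is written 5′ to 3′ on the strand of the gene with 5 flanking bases on either side, and capitals mark the stem-loop:
HIST1H4C, chr6:26104312-26104337, plus strand: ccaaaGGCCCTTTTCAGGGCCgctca
HIST1H1B, chr6:27866792-27866817, minus strand: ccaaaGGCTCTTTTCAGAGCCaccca
HIST1H1A, chr6:26017032-26017057, minus strand: ccaacGGCTCTTTTAAGAGCCaccta
HIST1H2AC, chr6:26124664-26124689, plus strand: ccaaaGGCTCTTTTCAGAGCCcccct
HIST3H2A, chr1:228457364-228457389, minus strand: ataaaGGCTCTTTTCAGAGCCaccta
HIST2H2BE, chr1:149886183-149886208, minus strand: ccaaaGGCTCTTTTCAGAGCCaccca
The form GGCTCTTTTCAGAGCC occurred in 36 genes, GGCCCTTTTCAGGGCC in 9, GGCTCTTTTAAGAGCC in 9 and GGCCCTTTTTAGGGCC in 4, with 10 forms in all. Of the 3 genes that fell in mitotic-high cells (below), HIST3H2A and HIST2H2BE carry the same 16 bases as HIST1H1B, which had the largest rise, and HIST1H2BD carries the form of HIST1H1A, which rose.

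The annotated transcript end differed among the genes as well. For 18 of the 64 genes, at least 1 coding transcript ends more than 100 bases past the stop codon, here called a long transcript. For 46 none does. These distances were measured along the genome and can include introns, so they are not lengths of the untranslated region. HIST3H2A has an annotated end 22648 bases past the stop codon, HIST1H2AC 14491 and HIST2H2BE 1801, whereas HIST1H4C ends 78 bases and HIST1H1B 57 bases past it. The polyadenylation signal AATAAA, searched on the transcript strand, lay in the last 50 bases of the longest-tailed transcript in 11 of the 18 genes with a long transcript and in 2 of the other 46, against 64.2% of 19701 canonical protein-coding transcripts. HIST3H2A and HIST2H2BE each share the interval in front of their start with a gene on the other strand. These intervals are shown because the genes on their opposite sides moved in opposite directions in cycling cells. They are written on the plus strand, with CCAAT and ATTTGCAT and their reverse complements in capitals:
HIST2H2BE (minus strand) and HIST2H2AC (plus strand), chr1:149886683-149886917, 235 bases: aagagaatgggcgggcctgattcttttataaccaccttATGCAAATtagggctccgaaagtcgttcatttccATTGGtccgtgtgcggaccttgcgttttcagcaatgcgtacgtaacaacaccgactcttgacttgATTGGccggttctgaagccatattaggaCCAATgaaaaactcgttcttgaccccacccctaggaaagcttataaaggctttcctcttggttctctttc
HIST3H2A (minus strand) and HIST3H2BB (plus strand), chr1:228457874-228458102, 229 bases: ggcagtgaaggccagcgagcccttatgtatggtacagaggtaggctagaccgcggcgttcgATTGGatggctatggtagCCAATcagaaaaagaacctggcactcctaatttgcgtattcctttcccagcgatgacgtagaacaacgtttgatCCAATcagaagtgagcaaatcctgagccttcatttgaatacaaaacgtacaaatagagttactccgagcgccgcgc
Each interval holds 3 CCAAT motifs, and ATTTGCAT occurs once in the first and not in the second. Over RefSeq promoters of the GRCh38 build (250 bases before to 50 after the start, both strands searched), CCAAT was found in 85.2% of 61 matched histone genes and 39.7% of 27305 genes, TATAAA in 67.2% and 14.0%, and ATTTGCAT in 39.3% and 2.19%. CCAAT was in all 6 H1, 16 H2A, 16 H2B and 11 H3 promoters but in 3 of 12 H4 promoters, and ATTTGCAT was in 11 of 16 H2A and 12 of 16 H2B promoters and in 0 of 6 H1 and 0 of 12 H4 promoters. A match describes these letters and says nothing of binding.

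The 66 genes gave 508560 UMIs in 15630 kept cells. A single H4 gene, HIST1H4C, held 221734 of them (43.6%), and the 14 H4 genes together held 45.5%. The 6 linker genes held 27.9%, the 17 H2A genes 14.6%, the 16 H2B genes 6.23% and the 13 H3 genes 5.75%. The cluster on chromosome 6 (HIST1, 51 genes) held 91.4%, and HIST3, with 2 genes, held 5.15%, nearly all of it HIST3H2A. The 10 genes with most UMIs held 85%: after HIST1H4C came the linker genes HIST1H1C (41073), HIST1H1D (40989) and HIST1H1B (33967), then HIST3H2A (25650), HIST1H1E (23377), HIST1H2AC (16762), HIST2H2AC (10545), HIST1H2BH (9576) and HIST1H3D (8581). At the other end, 6 genes held 19 UMIs together, among them the testis linker histone HIST1H1T with 4. HIST2H2AA3 and HIST2H2AA4 (5 and 788 UMIs), HIST2H4A and HIST2H4B, and HIST2H3A, HIST2H3C and HIST2H3D are near-identical copies. The authors' counting could split the reads of such copies, so their separate values are uncertain. The annotated span of HIST1H2BC, on the minus strand, holds HIST1H1T on the same strand and HIST1H4C on the plus strand. Whether that overlap affected any count was not tested.

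The libraries held 3796 (D23), 6023 (D32) and 5811 (D44) kept cells with a median of 12573.5, 36375 and 42940 UMIs, and 9 to 28 barcode sequences were shared between pairs of libraries. Cells were gated by summed marker genes. Melanocyte-like cells (PMEL, MLANA, DCT, TYR, TYRP1, MITF, TRPM1) numbered 2431, 5589 and 5769, mesenchymal-like cells (collagens, LUM, DCN, PRRX1, TWIST1) 391, 241 and 18, and neural-like cells (such as CDH2, ZIC1, MSX1 and DCX) 546, 49 and 1. In melanocyte-like cells, the summed melanocyte markers were at 4139 to 11988 CPM (counts of a gene or list per 1000000 UMIs of the cells summed), the pluripotent markers at 0.0264 to 0.675 CPM, the keratinocyte markers at 0 to 0.0377 CPM and the muscle markers at 0.0528 to 0.349 CPM. The endothelial list was at 31.9 to 38.2 CPM. S100B, a marker of Schwann cells, which share the neural crest origin of melanocytes, was at 501 (D23), 427 (D32) and 673 (D44) CPM. It was lower in mitotic-high cells (defined below), at 334, 339 and 607 CPM, than in low cells, at 637, 507 and 757 CPM, and its part in the results on those bins was not tested.

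Within melanocyte-like cells, the histone genes rose with the levels of other cell cycle genes, and they were highest where S and mitotic genes were both high. The S list held 39 genes of DNA replication such as PCNA and MCM5, the mitotic list held 25 such as CCNB1 and PLK1, and neither held a histone gene. Over the lowest 5 deciles of cells by S level, the summed histone level stayed between 247 and 284 CPM in D23, 267 and 289 in D32, and 357 and 383 in D44. In decile 10 it reached 3779 CPM (95% exact Poisson interval 3716 to 3842) in D23, 2183 (2165 to 2201) in D32 and 3158 (3137 to 3178) in D44. These intervals cover counting error only. Along the mitotic level the order was different: decile 9 was highest in each library, at 3151, 1654 and 2594 CPM, and decile 10 was lower, at 2388, 1129 and 1203 CPM.

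**Figure D1:**
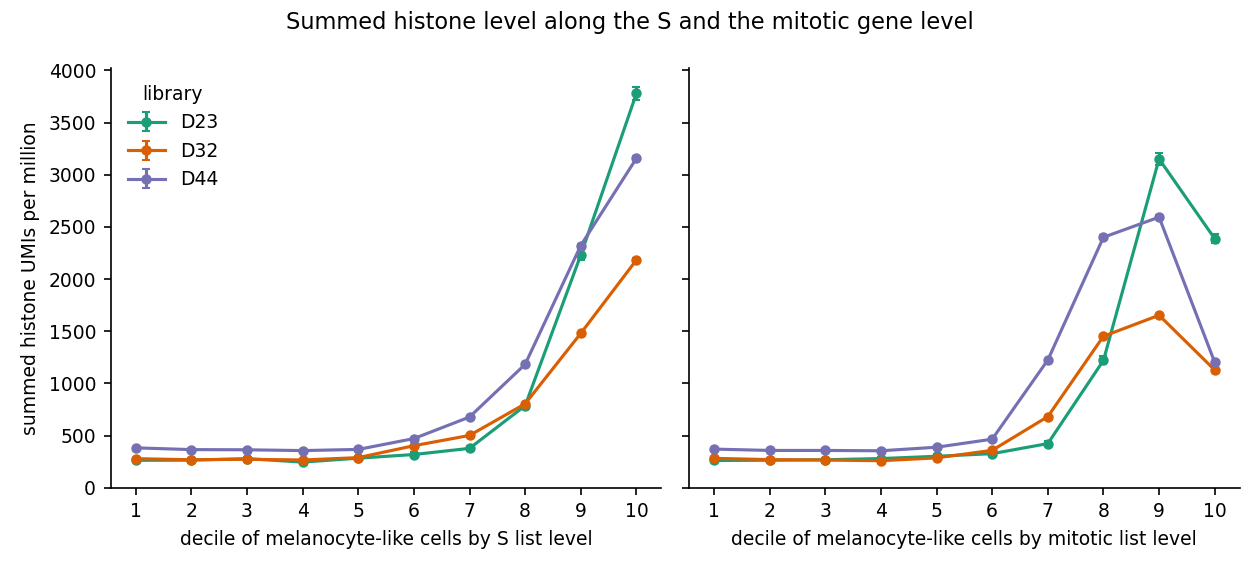
Summed histone CPM (y axis) in 10 deciles of melanocyte-like cells ranked by the S list (left) or the mitotic list (right), with 1 line per library and bars for the 95% counting interval. Along the S level each library is highest in decile 10 (3779, 2183 and 3158), and along the mitotic level in decile 9 (3151, 1654 and 2594).

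Ranking by both lists at once narrowed this down. Among cells in the top S quartile, those whose mitotic level lay below the library median had 397 (D23), 410 (D32) and 437 (D44) histone CPM, above the lowest deciles but far below the highest. Those between the 75th and 85th mitotic percentiles had 3487, 2428 and 3842 CPM, and those between the 85th and 95th had 4236, 2525 and 3468. Above the 95th mitotic percentile the sum was down to 1491, 1106 and 1284 CPM. The cells of high S level between the 75th and 95th mitotic percentiles were 306 (12.6%), 567 (10.1%) and 571 (9.90%) of the melanocyte-like cells of the 3 libraries.

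To test single genes, cells of each library were placed in 3 bins. Low cells were at or below the library median of both lists (974, 2349 and 2418 cells), mitotic-high cells were above the 75th percentile of the mitotic list (608, 1397 and 1442), and S-high cells were above the 75th percentile of the S list but at or below the median of the mitotic list (39, 92 and 123). With predicted doublets left out, the S-high bin held 38, 60 and 90 cells and the mitotic-high bin 606, 1282 and 1345. UMIs were summed per library and bin, and edgeR's quasi-likelihood test with the library as a block asked which differences recurred over the 3 libraries, with p-values adjusted over all genes tested. Mitotic-high cells were chosen without regard to the S list, which was at 2828 (D23), 2614 (D32) and 2561 (D44) CPM in them. It was at 2822, 2807 and 2937 CPM in S-high cells and at 440, 534 and 495 CPM in low cells. Mitotic-high cells were therefore also high in S genes. Median UMIs per cell moved with the bins as well, from 11870 in low to 15635 in mitotic-high cells of D23, 31798 to 46396 in D32 and 38514 to 51680.5 in D44.

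In mitotic-high over low cells, 47 of 53 tested histone genes rose and 3 fell, where over all genes 25.3% rose, 31% fell and 56.3% did either. With every cell thinned to 5000 UMIs, 39 rose and 3 fell. The count filter asked for enough counts in 3 of the sums, which the mitotic-high sums alone could meet. Genes scarce in low cells may have entered only that way, and for those the rise is not a test. How many did was not examined, so the counts of genes here and below may include them. The median log2 difference was 2.57 for the histone genes and -0.04 for all genes. Every family took part: 5 of 5 tested H1 genes, 12 of 14 H2A, 12 of 16 H2B, 8 of 8 H3 and 10 of 10 H4 genes rose. HIST1H4C, which codes for the core histone H4, was at 89.7 (D23), 47.9 (D32) and 81.9 (D44) CPM in low cells and reached 1417, 722 and 926 CPM in mitotic-high cells, and the libraries keep this order in the values below. The bins did not overlap, and the log2 difference was 3.77 (SE 0.08, adjusted p = 6.6e-19). HIST1H1B, a linker histone, went from 1.73, 2.66 and 5.91 CPM to 73.9, 93.8 and 196 CPM. Its log2 difference of 5.09 (SE 0.09) was the largest among the 53.

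The H3 genes followed closely, with log2 differences of 4.73 for HIST1H3G, 4.61 for HIST1H3B, 4.05 for HIST1H3D and 3.92 for HIST1H3F. HIST1H3B was at 1.49, 1.03 and 1.27 CPM in low and at 61.2, 23.3 and 28.7 CPM in mitotic-high cells, so it was highest in D23. Of the H2A and H2B genes, HIST1H2AL rose by 4.60 and HIST1H2BI by 4.04 on the log2 scale. HIST1H2BI was at 0.768 (D32) and 1.12 (D44) CPM over all melanocyte-like cells, so it may have passed the filter through mitotic-high sums only. HIST2H2AC, an H2A gene, was at 9.66, 4.03 and 7.90 CPM in low and 72.2, 23.4 and 46.4 CPM in mitotic-high cells (log2 difference 2.61, SE 0.07).

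A small group went the other way. HIST3H2A, an H2A gene outside the large cluster, was at 35.6, 64.2 and 74.4 CPM in low cells and at 19.6, 31.7 and 26.3 CPM in mitotic-high cells, lower in each library. The log2 difference was -1.21 (SE 0.08, adjusted p = 2.3e-10). In low cells it was the most counted core histone gene after HIST1H4C in D23 and exceeded HIST1H4C in D32, with 64.2 against 47.9 CPM. HIST2H2BE, an H2B gene, fell by 1.09 on the log2 scale (SE 0.19), from 2.56, 2.52 and 2.49 CPM to 2.52, 1.05 and 1.03 CPM. The D23 values were nearly equal, and the fall was in D32 and D44. HIST1H2BD, also H2B, was at 2.56, 2.63 and 2.91 CPM in low and 3.26, 1.25 and 1.72 CPM in mitotic-high cells, so that D23 went against the call (log2 difference -0.72, SE 0.18), and the call was lost in DESeq2 (adjusted p = 0.155). HIST1H2AC, HIST1H2BG and HIST1H2BJ did not pass, with log2 differences of -0.28, 0.21 and 0.37.

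All 3 genes that fell and 2 of the 3 that did not pass are among those with a long annotated transcript. Of 15 tested genes with such a transcript, 10 rose and 3 fell, with a median log2 difference of 0.88. Of 37 without one, 36 rose and 0 fell, with a median of 3.05 (HIST1H2BG did not pass, and HIST2H2AA4, which was not matched, is in neither group). A list of genes known to be polyadenylated outside S phase, which overlaps the first group, had 4 of 9 tested genes higher and 3 lower. These lists were not tested against other genes.

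The opposite strands of the intervals printed above differed in the same cells. HIST2H2BE fell by 1.09 on the log2 scale while HIST2H2AC on the other side rose by 2.61. HIST3H2A fell by 1.21, and HIST3H2BB, across an interval of 229 bases, was at 0.413, 0.667 and 1.12 CPM in low and 1.58, 1.00 and 1.48 CPM in mitotic-high cells (log2 difference 0.59, adjusted p = 0.023). Among the 11 H2A and H2B pairs on opposite strands, 5 had both genes higher, 3 had a single gene called, 2 (those printed) moved in opposite directions and 1 had a gene that was not tested. An example of the 5, named after its values were seen, is the chromosome 6 pair of HIST1H2AJ and HIST1H2BM, at 3.48 and 3.51.

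**Figure D2:**
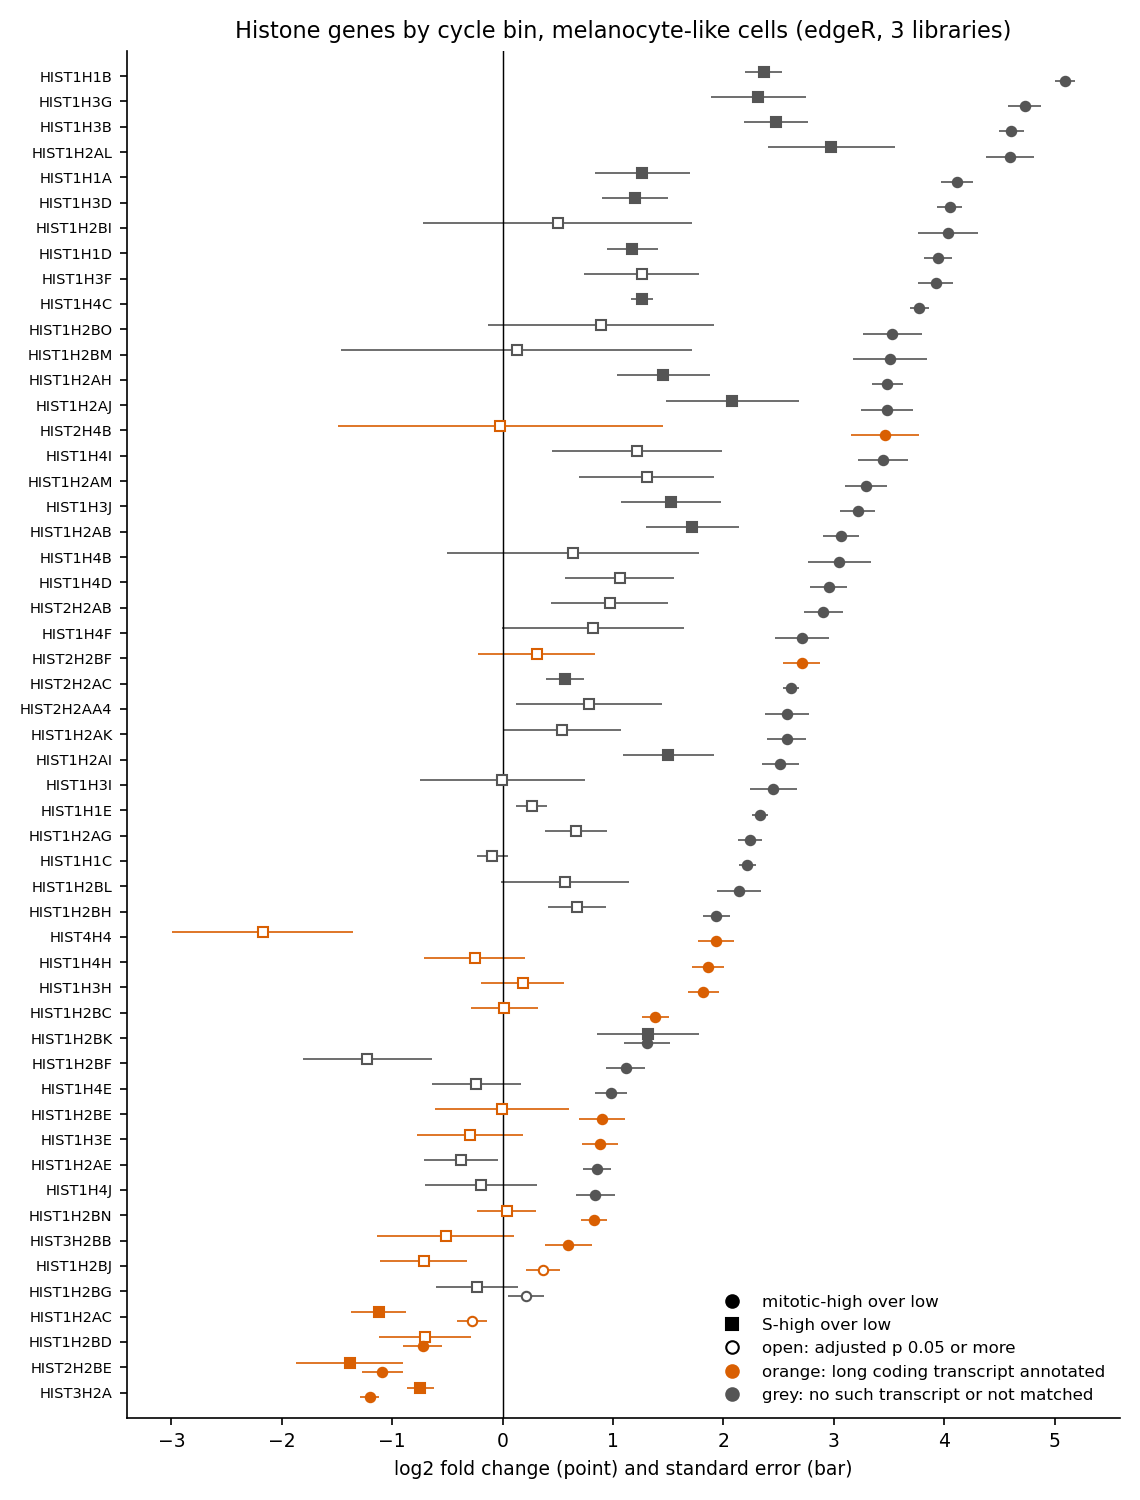
Log2 fold change with its standard error for each of 53 histone genes in melanocyte-like cells, mitotic-high over low (circles) and S-high over low (squares), where filled symbols have an adjusted p under 0.05 and orange marks genes with a long annotated transcript. Circles of 47 genes lie right of 0 with filled symbols, and HIST3H2A, HIST2H2BE and HIST1H2BD lie left.

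Cells of high S but low mitotic level had a smaller rise, with fewer genes called in a bin of fewer cells. The S-high sum of D23 held 521662 UMIs, of which 207 were histone UMIs. There 3 UMIs make 5.75 CPM, so D23 values of single genes in this bin rest on few UMIs. In S-high over low cells, 15 of 53 genes rose and 3 fell, where 12.3% of all genes rose, 9.31% fell and 21.6% did either. Without D32, 8 rose, and without D23, 5 fell. The median log2 difference was 0.56 for the histone genes and -0.04 for all genes. The genes that rose most were again H2A, H3 and H1 genes: HIST1H2AL by 2.98, HIST1H3B by 2.47, HIST1H1B by 2.36, HIST1H3G by 2.32 and HIST1H2AJ by 2.08. HIST1H4C was at 180, 147 and 171 CPM in S-high cells, above the low cells of each library (log2 difference 1.26, SE 0.10). HIST1H2AC, HIST2H2BE and HIST3H2A fell, by 1.12, 1.39 and 0.75. HIST2H2BE had no UMI among the 39 S-high cells of D23, and its call was lost with DESeq2 (adjusted p = 0.097) and with total UMIs as library size (0.056). Here 0 of 15 genes with a long transcript rose and 3 fell, and of 37 without one, 15 rose and 0 fell. On the list of genes known to be polyadenylated outside S phase, 1 of 9 rose (HIST1H2BK, by 1.32) and 3 fell.

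Set directly against mitotic-high cells, S-high cells had 43 of 53 genes lower and 1 higher, where 9.87% of all genes were lower, 8.13% higher and 18% either. The gene that was higher was HIST3H2A, at 15.3, 45.8 and 38.9 CPM in S-high and 19.6, 31.7 and 26.3 CPM in mitotic-high cells (log2 difference 0.46, adjusted p = 0.021). D23, on few S-high UMIs, did not share that direction, and the call was lost without D32, without D44 and in DESeq2. The number of lower genes was 27 without D44 and 23 with each cell thinned to 5000 UMIs. Genes that passed the count filter only through mitotic-high sums may be among those lower. Because the S-high bin held few cells, a wider bin was added after seeing the data, with all cells above the 75th percentile of the S list that were not mitotic-high (210, 681 and 795 cells). Its histone sum was 689, 920 and 1590 CPM, against 2556, 1446 and 2025 CPM in mitotic-high cells. With this bin 50 of 59 genes rose and 5 fell over low cells (22.4% and 22.7% of all genes, 45% either). Against mitotic-high cells 0 of 59 were higher and 35 lower (13.5% and 13.2% of all genes, 26.7% either).

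The 5 linker genes that were measured, HIST1H1A to HIST1H1E, all rose in mitotic-high cells but by different amounts. HIST1H1D went from 3.88, 6.49 and 17.9 CPM in low to 119, 122 and 207 CPM in mitotic-high cells (log2 difference 3.94, SE 0.13). HIST1H1C went from 14.8, 26.7 and 38.7 to 99.0, 111 and 174 CPM, and HIST1H1E from 8.42, 9.98 and 24.3 to 52.9, 55.5 and 107 CPM, with log2 differences of 2.22 and 2.33 (SE 0.08 each). HIST1H1C and HIST1H1E thus had higher levels than HIST1H1B and HIST1H1D in low cells, and a smaller rise. In S-high over low cells HIST1H1B and HIST1H1D rose (log2 differences 2.36 and 1.17), whereas HIST1H1C at -0.09 and HIST1H1E at 0.26 did not pass. With the wider bin both passed, HIST1H1C at 1.44 (adjusted p = 1.2e-06) and HIST1H1E at 1.66 (adjusted p = 1.4e-07).

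**Figure D3:**
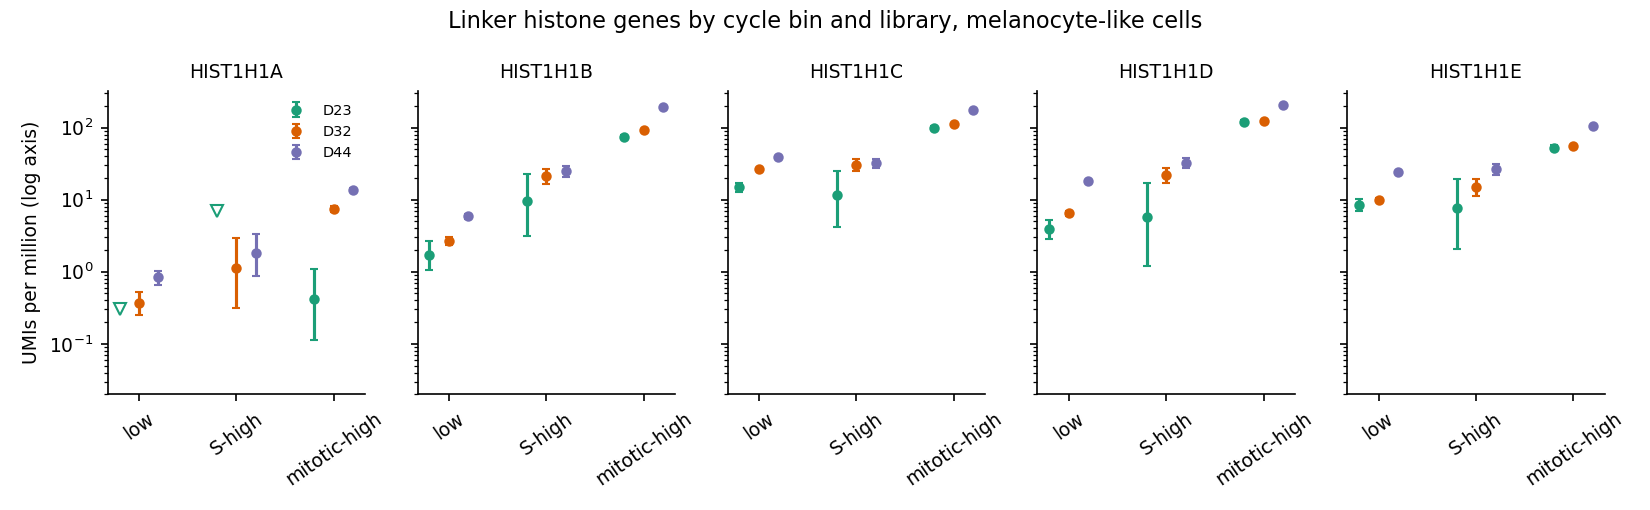
CPM (y axis, log) of 5 linker histone genes in low, S-high and mitotic-high melanocyte-like cells, with 1 colour per library and bars for the 95% counting interval; open triangles mark the upper limit where no UMI was seen. HIST1H1B runs from 1.73 to 5.91 in low to 73.9 to 196 in mitotic-high cells, and HIST1H1C from 14.8 to 38.7 to 99.0 to 174.

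Between cell classes few histone genes passed the test. The summed level was 984 (D23), 732 (D32) and 1051 (D44) CPM in melanocyte-like cells. It was 949, 998 and 387 CPM in mesenchymal-like cells and 1199, 555 and 222 CPM in neural-like cells. The order of the classes was different in each library. The lowest sums came from 18 mesenchymal-like cells and 1 neural-like cell of D44, and in those 18 cells the S list was at 629 CPM and the mitotic list at 288, against 1729 and 1781 in the melanocyte-like cells of that library. Of 48 histone genes tested in melanocyte-like over mesenchymal-like cells, 2 were higher and 0 lower, where over all genes 9.64% were higher, 11.9% lower and 21.5% either. DESeq2 also called 2 of 48, and the number was 1 without D32 or without D44 and 3 without D23. HIST3H2A was at 28.0, 47.9 and 49.4 CPM in melanocyte-like and 7.62, 13.3 and 18.5 CPM in mesenchymal-like cells, with no overlap between the classes (log2 difference 1.80, SE 0.28, adjusted p = 0.0039). HIST1H1A was the other. It had no UMI in mesenchymal-like cells and passed the count filter through melanocyte-like cells, so that call does not count as a test.

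Against neural-like cells 0 of 48 genes were called in either direction (10.1% higher, 12.1% lower and 22.2% either over all genes). An unadjusted p under 0.05 was found for 1 gene, and DESeq2 called 0. That comparison rested on D23 and D32. HIST3H2A, at 40.0 and 34.1 CPM in the neural-like cells of D23 and D32, did not differ detectably from the melanocyte-like cells (log2 difference 0.04, SE 0.31), and HIST1H4C was at 598 and 188 CPM there, against 508 and 323 CPM.

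HIST1H1A was counted in few cells and at high numbers. A UMI was found in 1 of 2431 melanocyte-like cells of D23 (0.0411%), 188 of 5589 of D32 (3.36%, exact interval 2.91 to 3.87) and 321 of 5769 of D44 (5.56%, 4.99 to 6.19), and single cells held up to 4, 20 and 49 UMIs. Median UMIs per cell were 12685, 36761 and 42969 in these cells. In neural-like cells a UMI was found in 1 of 546 (D23) and 1 of 49 (D32). No mesenchymal-like cell of D23, D32 or D44 had one, which allows a share of up to 0.939%, 1.52% and 18.5% (upper limit of the exact interval) among 391, 241 and 18 cells. Against a mesenchymal-like floor of 3 UMIs per library, the melanocyte-like level was 8.81-fold higher in D32 and 1.27-fold higher in D44. That floor treats UMIs as spread evenly over cells, whereas HIST1H1A lay in few cells, so these are not lower bounds. By share of cells, the upper limit of 1.52% in D32 lay below 3.36%. The limit of 18.5% in D44 did not lie below 5.56%, so no difference is shown there. In D23 the melanocyte-like level of 0.123 CPM lay below the mesenchymal-like floor of 0.602 CPM, so no ratio was given. In mitotic-high cells HIST1H1A was at 0.421, 7.42 and 13.5 CPM, and in low cells at 0, 0.371 and 0.833 CPM (log2 difference 4.12, SE 0.14).

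In cells of high S level between the 75th and 95th mitotic percentiles, where the histone genes peaked, HIST1H1A stood apart from genes of the same mean. In D32 its mean was 0.683 UMIs per cell in 567 cells, and 10.4% of the cells had a UMI, whereas HIST1H3F, with a mean of 0.711, had a UMI in 44.3%. In D44 its mean was 1.47 in 571 cells with a UMI in 12.4%, whereas HIST1H3G, with a mean of 1.70, had a UMI in 71.5%. The variance over the mean was 9.75 and 21.7 for HIST1H1A, 1.48 for HIST1H3F in D32 and 1.62 for HIST1H3G in D44. These genes were chosen after their values were seen, and the difference is a description of 2 libraries. Cells of this set with at least 2 HIST1H1A UMIs also had the transcript AC012645.1 at 0.0232 (D32) and 0.0420 (D44) times the level in those with none. That transcript was picked because its D32 ratio, on 3 UMIs, was the lowest among genes with at least 200 UMIs in these D32 cells. Whether the libraries hold cells of more than 1 source was not tested, so the share of cells with HIST1H1A and its rise between bins and days may not refer to a uniform population.

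**Figure D4:**
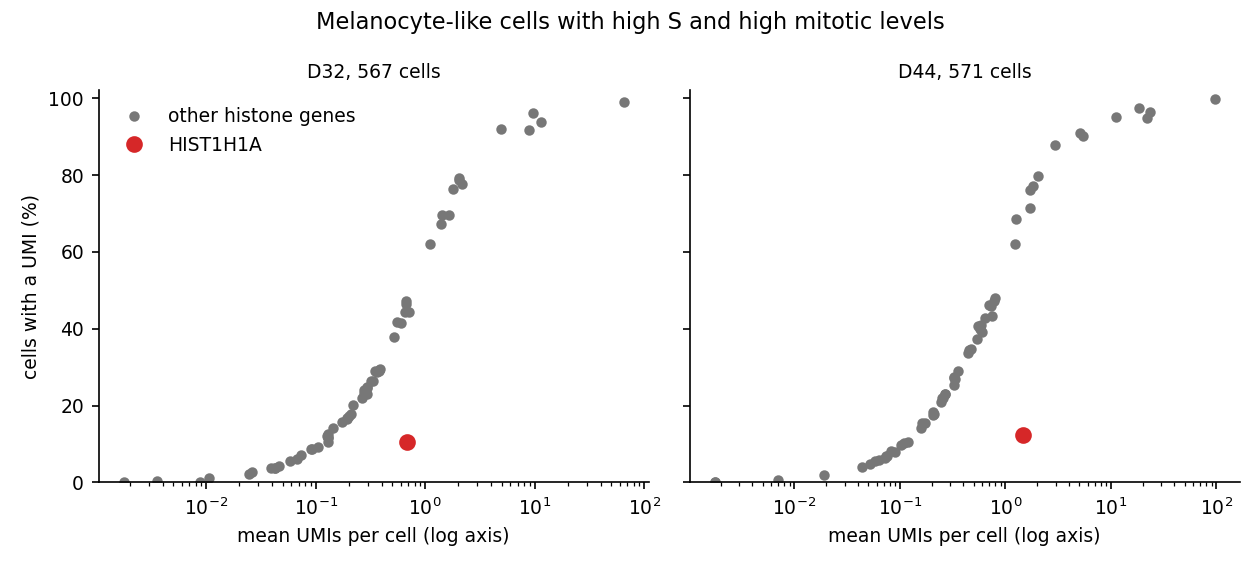
Percent of cells with a UMI (y axis) against mean UMIs per cell (x axis, log) for each histone gene in melanocyte-like cells of the top S quartile between the 75th and 95th mitotic percentiles, D32 (567 cells) and D44 (571 cells). HIST1H1A (red) lies at 10.4% and 12.4%, below the curve formed by the other genes.

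Between days no test was possible with 1 library per day, and intervals of ratios cover counting error only. In melanocyte-like cells the summed histone level was 1.44 times higher in D44 than in D32 (interval 1.43 to 1.44), while the S list was at 1.01 times and the mitotic list at 1.10 times. The linker genes contributed most, with a ratio of 1.92 (1.90 to 1.94), against 1.35 for H4, 1.34 for H3, 1.16 for H2A and 1.09 for H2B. The ratio of the sums was 1.35 in low cells, 1.40 in mitotic-high cells, 1.07 in S-high cells (interval 0.998 to 1.14, not a detectable difference) and 1.73 in the wider S-high bin. Of 58 histone genes with at least 100 UMIs in both libraries together, 14 were over 1.5-fold higher and 5 over 1.5-fold lower, where 4.51% and 8.38% of all genes were.

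The ratios were 2.24 for HIST1H1B (38.7 to 86.8 CPM), 2.13 for HIST1H1E (27.5 to 58.4), 2.09 for HIST1H1A (3.06 to 6.40), 1.94 for HIST1H1D (51.2 to 99.4) and 1.58 for HIST1H1C (58.2 to 91.7). All 5 linker genes were therefore higher in D44. In low cells alone HIST1H1D was 2.76 times, HIST1H1E 2.44 times and HIST1H1C 1.45 times higher. Among core histone genes HIST1H3D (ratio 2.71, from 8.29 to 22.5 CPM), HIST1H2AH (2.32) and HIST2H2AC (2.14) were highest, and HIST1H3J (0.436, from 4.21 to 1.84 CPM), HIST2H4B (0.523), HIST2H2AA4 (0.610), HIST1H4I (0.614) and HIST2H4A (0.634) lowest.

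For D32 over D23 the ratio was below 1 for each core histone family over all melanocyte-like cells, but not in every bin. The sum was at a ratio of 0.744 (0.735 to 0.753), with 0.711 for H2A, 0.663 for H2B, 0.645 for H3 and 0.620 for H4, but 1.44 for H1. The S list was at 1.12 times and the mitotic list at 1.09 times. In low cells the sum did not differ detectably (ratio 1.00, interval 0.968 to 1.04), with H2A at 1.37 and H4 at 0.528. In mitotic-high cells the sum was at 0.566, and in S-high cells at 1.03 (0.893 to 1.20). In the wider S-high bin it was higher in D32, at 1.34 (1.28 to 1.40), with 1.24 for H3, 1.23 for H4, 0.836 for H2A and 0.873 for H2B. Of 53 genes 3 were over 1.5-fold higher and 31 over 1.5-fold lower, where 15.2% and 26% of all genes were. HIST3H2A (1.71), HIST1H1B (1.60), HIST1H1C (1.47) and HIST1H2BJ (1.33) were highest after HIST1H1A, whose ratio of 24.9 rests on 4 UMIs in D23 (interval 9.69 to 91.7). HIST1H2AJ (0.130, from 15.0 to 1.95 CPM), HIST1H2AH (0.138), HIST1H4J (0.170), HIST2H2AA4 (0.207) and HIST1H2BO (0.276) were lowest.

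**Figure D5:**
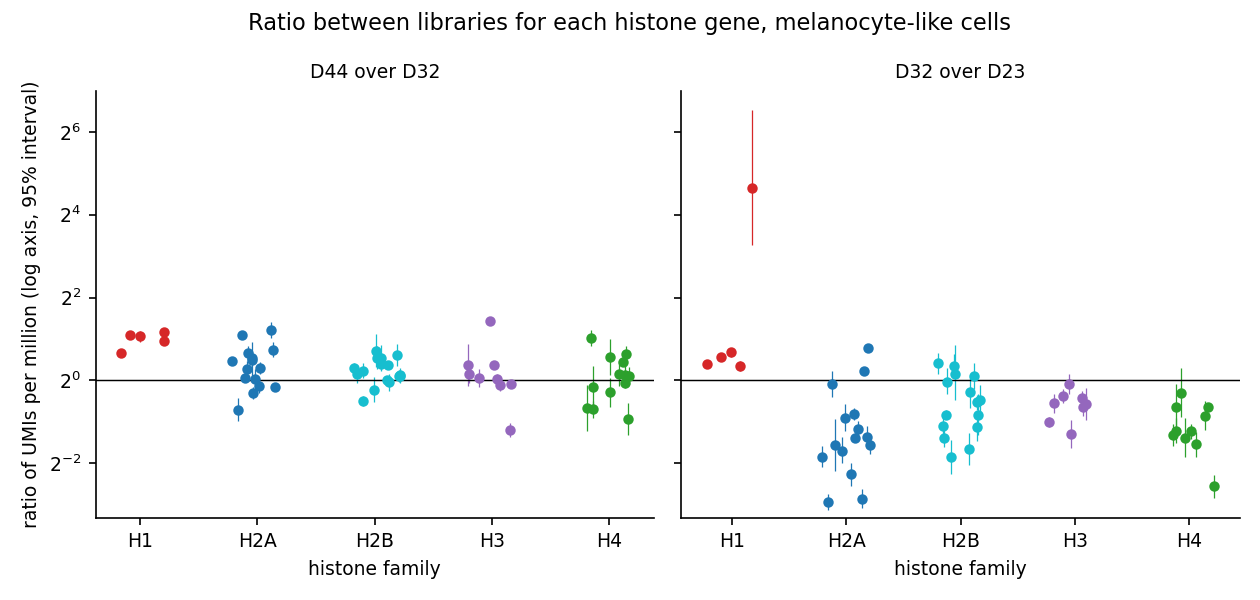
Ratio of CPM between libraries (y axis, log) for each histone gene in melanocyte-like cells by family, D44 over D32 (left) and D32 over D23 (right), with bars for the 95% counting interval. All 5 linker genes lie above 1 in both panels, and most core histone genes lie below 1 for D32 over D23.

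Genes of the factors that make and handle histones were examined in the same bins. Of 18 genes for histone mRNA transcription and 3′ end processing tested in mitotic-high over low cells, 13 rose and 3 fell (25.3% and 31% of all genes, 56.3% either), with a median log2 difference of 0.39. SLBP, which binds the stem-loop, rose by 0.59, and the exonuclease ERI1, which trims it, by 1.06. NPAT did not pass, at -0.14. In S-high over low cells the order was different: 9 of 18 rose and 0 fell (12.3% and 9.31% of all genes, 21.6% either), with SLBP at 1.45 and CASP8AP2 at 1.46, and SLBP was higher in S-high than in mitotic-high cells (log2 difference 0.86, SE 0.07).

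Of 23 histone chaperones and acetylation factors, 18 rose and 1 fell in mitotic-high over low cells, against the same 25.3% and 31% of all genes, led by HJURP (6.04), which loads the centromeric H3 variant, the H3 and H4 chaperone ASF1B (4.31) and the assembly factor subunit CHAF1A (2.71). In S-high over low cells 16 rose and 1 fell, against 12.3% and 9.31% of all genes, with ASF1B at 4.13. Of 11 replacement histones, which are made outside replication as well, 9 rose and 0 fell in mitotic-high over low cells, with the centromeric CENPA at 5.99, H2AFX at 2.96, H2AFZ at 1.10 and the linker variant H1F0 at 0.71, while H2AFJ at -0.03 did not pass. In S-high over low cells 6 rose and 3 fell, H1F0 among the latter at -0.62. In melanocyte-like over mesenchymal-like cells 1 of the 18 processing genes, 1 of the 23 chaperones and 3 of the 11 replacement histones were called, where 21.5% of all genes were. NPAT (0.98), H2AFZ (0.87) and H2AFJ (0.65) were higher and ASF1A (-0.77) and H2AFY2 (-1.10) lower.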

How the data were processed

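The authors deposited 1 matrix of raw UMI counts per gene and barcode for each of the 3 libraries, aligned to GRCh38 and counted with Cell Ranger 6.1.2, without normalization. The annotation release behind it is not given in the sources used here. The study's cell filter was applied to the deposited counts: genes over 1000 and under 7000 with UMIs under 50000 in D23, genes over 3000 and under 9000 with UMIs under 100000 in D32 and D44, over 500 UMIs in each, and at most 10% mitochondrial UMIs. It left 15630 of 22522 barcodes. Libraries held 49850363 to 266709913 UMIs.

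A cell took the class with the highest summed markers, given at least 5 per 10000, 3 UMIs and 2 times each other list, and other cells stayed ungated. Predicted doublets (1.50%, 8.12% and 6.71%, the later libraries at the expected share since the automatic threshold failed there) were kept. UMIs were summed per library and class or bin (at least 10 cells) and tested with edgeR 4.0.16 (quasi-likelihood, TMM, filterByExpr, library as block, Benjamini-Hochberg over all genes, 0.05), after a check on simulated counts. DESeq2 1.42.0, total UMIs, no filter, no block, other gates, bins and cell filters, thinning and leaving out each library were alternatives. Sums of a library come from the same droplet run and deviated together (correlations 0.264 to 0.941), which is where the pairing comes from. Nothing says that a day was repeated, so p-values measure recurrence over these 3 libraries. Since D32 and D44 shared an induction and a batch, these are not 3 independent inductions.

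Named genes were the 10 with most UMIs, every H1 gene, up to 10 per direction and comparison past the threshold, and the 5 largest and 5 smallest day ratios among genes with at least 100 UMIs. The genes and lists were chosen with earlier results of these data known. The levels of some further markers are not reported here.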

Additional observations from a re-analysis of the deposited data

Results flagged for a closer look

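HIST1H2AC moved in opposite directions in the libraries. The ratio of CPM in mitotic-high over low melanocyte-like cells was 1.71 in D23, 0.681 in D32 and 0.702 in D44. HIST1H2BK was opposite for S-high over mitotic-high cells, at 2.28 in D32 and 0.396 in D44. Neither difference between libraries was tested.

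Cells that no marker list gated, 428 in D23, 144 in D32 and 23 in D44, entered no comparison above and had 732, 957 and 1125 summed histone CPM. HIST1H1A was at 64.1 CPM in the 23 ungated cells of D44, against 6.40 CPM in melanocyte-like cells, with 60 UMIs in 2 cells and up to 54 in 1 of them.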

How the results depend on the processing

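Fewer than 10 cells in the S-high bins at the 90th percentile left no S-high comparison there, and leaving out D23 or D32 left no neural-like comparison. Depth limits D23 most. Leaving out a library gave 1 to 3 genes higher over mesenchymal-like cells, 8 to 15 higher and 2 to 5 lower in S-high over low cells, and 0 to 1 higher and 27 to 43 lower in S-high over mitotic-high cells.

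Without the library as a replicate block, 1 gene was higher over mesenchymal-like cells, 2 were higher and 0 lower in S-high over low cells, 34 were higher and 0 lower in mitotic-high over low cells, and 0 were higher and 5 lower in S-high over mitotic-high cells. With no low count filter 2 genes were higher over neural-like cells and 6 lower in S-high over low cells. With a broad G2M list in place of the mitotic list, 8 rose and 1 fell in S-high over low cells, and with the wider S-high bin 50 rose and 5 fell, while 0 were higher than in mitotic-high cells. With cells thinned to 5000 UMIs 1 gene was higher over mesenchymal-like cells, and 0 were higher and 23 lower in S-high over mitotic-high cells, where DESeq2 gave 0 higher.

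The sum of D44 over D32 was 1.46 with doublets left out, 1.48 thinned and 1.49 as a mean over cells. D32 over D23 was 0.731, 0.779 and 0.768. In S-high over low cells HIST1H1A turned to -0.087 with doublets left out and HIST1H1C to 1.44 with the wider bin. The median of all genes over neural-like cells moved by -0.11 with DESeq2 and -0.18 with total UMIs as library size. For single named genes, 956 values kept direction and call, 98 lost the call, 16 gained it and 2 reversed. The cause was not tested.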

Other observations

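HIST1H1A was examined further because of its values, so these are descriptions. Whether the cells with HIST1H1A UMIs and the other cells had the same source was not tested. Among melanocyte-like cells of the top S quartile between the 75th and 95th mitotic percentiles, 46 cells of D32 and 67 of D44 had at least 2 HIST1H1A UMIs, 508 and 500 had none, and 13 and 4 had 1. Cells with at least 2 and with none had median UMIs of 48669 and 48132 in D32 and of 55236 and 55063 in D44. The other histone genes were at 1.16 (D32) and 1.06 (D44) times, the other linker genes at 1.26 and 1.03 times, the S list at 1.02 and 1.03 times and the mitotic list at 0.974 and 1.03 times the level in cells with none.

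Among genes with at least 200 UMIs in the D32 cells, the 4 with the lowest and the 4 with the highest ratio in D32 were read in D44. The transcript AC012645.1 was at a ratio of 0.0232 in D32, on 3 UMIs, and 0.0420 in D44. It had a UMI in 4.35% of cells with at least 2 HIST1H1A UMIs against 47.8% of those with none in D32, and in 7.46% against 44% in D44. NECTIN3-AS1, an antisense transcript, was at 0.0616 and 0.0176, with a UMI in 4.35% against 30.5% and 1.49% against 32.8% of cells. HLA-DRB1, a class II antigen gene, was at 0.107 and 0.335, and CTSK, a cathepsin, at 0.157 and 0.479. Of the 4 high genes, MSX1, a neural crest homeobox gene, was at 2.86 and 2.46, TAGLN at 4.09 and 0.330, and BMP4 at 3.27 and 0.454, while CRABP1, at 6.68 in D32, had 3 UMIs in D44. The p-value of these ratios was not computed, since cells are not replicates and the genes were chosen by their ratio in D32.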
